A study of Mus musculus with 6 samples.

Results

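Genes that mark T cells and natural killer (NK) cells were followed in sorted mouse hepatocytes: Nkg7, Gzma, Gzmb, Prf1, Cd3e, Cd3g, Cd8a and Klrk1. They were taken by gene name from a table of raw counts and are 8 of its 49315 genes. All 8 were found, each with 1 identifier. In miR-206 hepatocytes the granule genes Nkg7 and Gzma were counted 1 time each over 3 libraries together, against 305 and 81 counts over 3 control libraries. Cd3e, a chain of the T cell receptor complex, was higher in miR-206 hepatocytes and the co-receptor gene Cd8a was lower, 2 calls that were each lost when 1 miR-206 library was left out. For Gzmb, Prf1, Cd3g and Klrk1 the test did not separate the groups.

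The miR-206 group was GFP-positive hepatocytes of male C57BL/6J mice (3 libraries) and the control group was GFP-negative hepatocytes (3 libraries). By the design text, 3 mice received, at 8 weeks of age and by hydrodynamic injection, 20 µg of a transposon plasmid that carries miR-206 and GFP under the TTR promoter. A Sleeping Beauty transposase plasmid (0.8 µg) was given with it. When 4 weeks had passed, the liver was perfused and both fractions were sorted from the same cells, so control cells come from injected animals too. The sample labels differ from this in calling the control cells wild-type and their treatment an empty vector. The TTR promoter is active in hepatocytes, and the sort was on GFP with no stated marker of lymphocytes, so the labels do not say how many T or NK cells entered either fraction.

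Cytotoxic T cells and NK cells kill target cells by releasing granules. Perforin opens the target's membrane, granzymes enter and cleave proteins inside, and a second route runs through Fas ligand. T cells see peptide on MHC class I through the T cell receptor, whose signal passes into the cell through the CD3 chains and whose contact CD8 steadies, while NK cells and many CD8 T cells also carry the activating receptor NKG2D. The mouse liver holds resident NK cells, NKT cells and T cells in its sinusoids, where they lie close to hepatocytes.

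The control libraries were deeper than the miR-206 libraries, with total counts of 4157947 to 5724329 in miR-206 and 8966590 to 15244017 in control. Mitochondrially encoded genes took 11.2%, 63.8% and 48.7% of counts in miR-206 replicates 1, 2 and 3, against 36%, 9.16% and 10.4% in control replicates 1, 2 and 3. CPM are counts scaled to the library total. Control replicate 1 stood apart from the other controls, with a correlation of log2 CPM (here with the TMM factors given below) of 0.854 and 0.856 with them, against 0.965 between those 2. Counts also fell on genes that liver cells are not known to use: 1431 olfactory and vomeronasal receptor genes had 5.31, 3.6 and 5.24 counts per exonic kilobase in the miR-206 libraries, against 2.95, 1.39 and 1.22 in the controls. This receptor background is given below beside each of the 8 genes, and for the genes that work with them as a summary, since it moves with the groups. Between groups in bulk RNA, fewer cells of a type and less RNA per cell cannot be told apart.

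The fold changes below come from the edgeR quasi-likelihood test with TMM normalisation, which takes most genes as unchanged, and adjusted p-values are Benjamini-Hochberg values over 24382 genes tested. TMM factors were 1.94, 1.12 and 1.35 in the miR-206 libraries and 0.849, 0.634 and 0.629 in the controls, so a gene with equal CPM in both groups gets a negative fold change. The median log2 fold change of all genes tested was 0.45 with TMM, 0.35 with RLE factors, 1.25 with upper-quartile factors, 1.47 with library size alone and 2.84 when libraries were scaled to hepatocyte identity genes.

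The overexpressed strand is shown because the mature miRNA finds its targets by bases 2 to 8, its seed, here in capitals. Mature mmu-miR-206-3p (RefSeq, GRCm38.p6, chr1:20679055-20679076, plus strand) reads:
mmu-miR-206-3p: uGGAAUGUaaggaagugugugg
The letters that pair with this seed, ACATTCC, occur in the annotated 3′ UTR of 1 of the 8 genes, Cd8a, against 2119 of 21685 mouse genes with a 3′ UTR (9.77%). The site starts at base 1914 of a UTR of 2309 bases and is not followed by an adenine. It is shown with the bases around it and the seed match in capitals:
Cd8a site: aatccttggagaACATTCCttagcaccccc
The 3′ UTRs of the other genes hold no such match over 70 bases in Gzma, 155 in Nkg7, 366 in Cd3g, 584 in Gzmb, 754 in Prf1, 794 in Cd3e and 2466 in Klrk1.

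The promoters of the 2 genes that were almost uncounted in miR-206 cells, and of the gene that was higher there, are shown from 250 bases before to 50 bases after the start site (RefSeq, GRCm38.p6). Capitals mark letters of the RUNX motif (TGTGGT, or ACCACA on the other strand) and of the T-box motif (GTGTGA, or TCACAC), families of factors that act in cytotoxic lymphocytes. The windows are chr7:43436888-43437187 on the plus strand for Nkg7, chr13:113100932-113101231 on the minus strand for Gzma and chr9:45009562-45009861 on the minus strand for Cd3e.
Nkg7: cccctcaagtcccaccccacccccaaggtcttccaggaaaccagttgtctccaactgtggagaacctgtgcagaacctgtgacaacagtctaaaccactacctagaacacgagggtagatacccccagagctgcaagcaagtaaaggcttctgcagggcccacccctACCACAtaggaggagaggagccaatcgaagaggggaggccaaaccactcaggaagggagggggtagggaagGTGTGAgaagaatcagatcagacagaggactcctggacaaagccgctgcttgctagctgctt
Gzma: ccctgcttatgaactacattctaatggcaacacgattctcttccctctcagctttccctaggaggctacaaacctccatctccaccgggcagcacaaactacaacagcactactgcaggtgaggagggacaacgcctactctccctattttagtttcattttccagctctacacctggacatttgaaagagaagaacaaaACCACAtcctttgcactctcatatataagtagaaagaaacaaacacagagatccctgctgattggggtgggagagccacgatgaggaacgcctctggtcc
Cd3e: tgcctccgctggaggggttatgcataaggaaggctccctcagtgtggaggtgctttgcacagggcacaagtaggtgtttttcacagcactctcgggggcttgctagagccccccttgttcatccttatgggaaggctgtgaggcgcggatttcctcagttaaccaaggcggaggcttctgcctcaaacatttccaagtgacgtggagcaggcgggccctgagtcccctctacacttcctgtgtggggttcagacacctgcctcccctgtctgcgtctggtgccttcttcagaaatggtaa
RUNX letters were found in the windows of Nkg7, Gzma, Gzmb, Prf1 and Klrk1, 5 of the 8 genes, and in 16.8% of all 32851 promoter windows. T-box letters were found in Nkg7 and Gzmb and in 14.5% of all windows. Neither run of letters occurs in the windows of Cd3e, Cd3g and Cd8a, which says only that these letters are not in these 300 bases. Both families of factors are read here by letters alone, and a match is not evidence of binding.

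Of the 8 genes, 7 had enough counts for the test, and 2 of these were lower in miR-206 (Nkg7 and Cd8a), 1 was higher (Cd3e) and 4 did not pass. Nkg7 and Cd8a reached the count filter of 1.36 CPM in 3 libraries through their 3 control libraries (0 and 1 of the miR-206 libraries reached it), and Prf1 through its 3 miR-206 libraries (0 of the controls did), so the filter had a hand in the direction of each and the counts support nothing by themselves. Gzmb reached that cutoff in 3 miR-206 and 2 control libraries. Over all genes tested 29.6% were lower and 25.8% were higher, so the counts of called genes alone do not set the 8 apart. Their median log2 fold change was 0.10, against 0.45 over all genes tested. In CPM without further scaling, all miR-206 libraries lay below all controls for Nkg7 and Gzma and above all controls for Prf1, Cd3e, Cd3g and Klrk1, patterns that 16.8% and 52.6% of all genes tested showed.

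**Figure D1:**
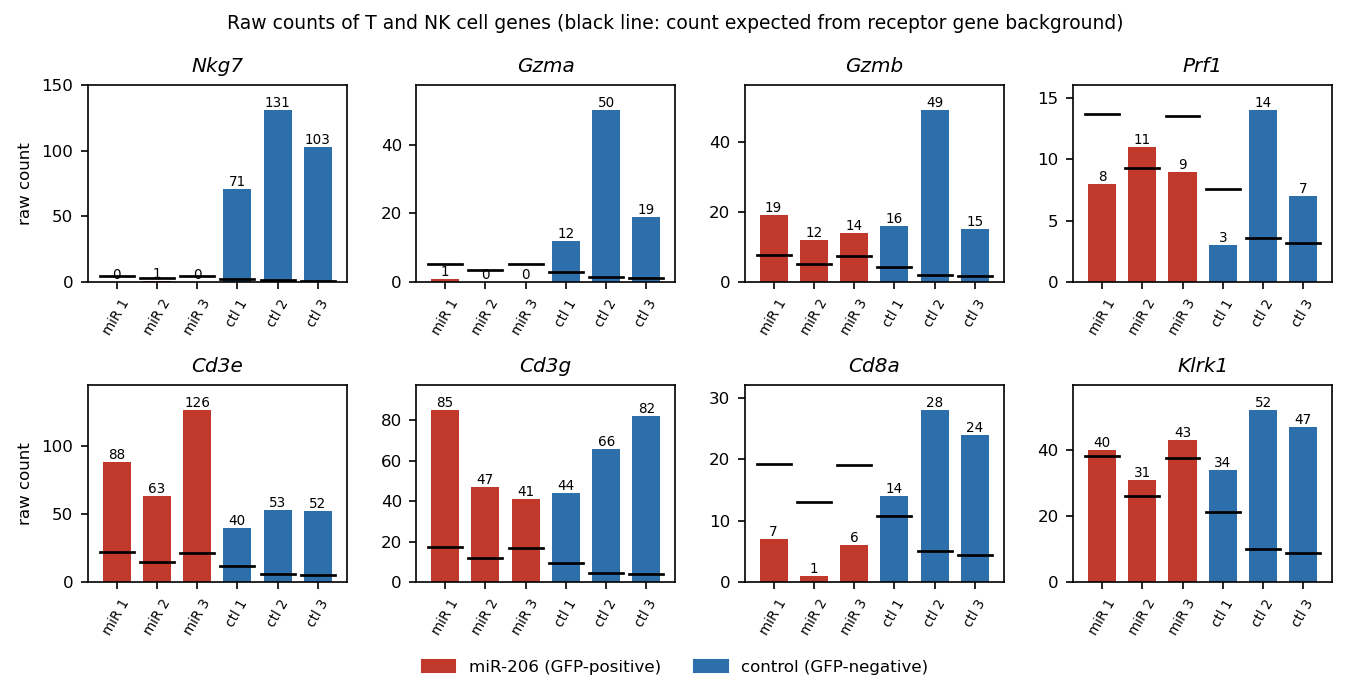
Raw counts of the 8 T and NK cell genes in each library, with miR-206 libraries (red) left of control libraries (blue). A black line gives the count expected from the receptor background for the exonic length of the gene. Nkg7 had 0, 1 and 0 counts in the miR-206 libraries and 71, 131 and 103 in the controls, while Cd3e had 88, 63 and 126 in miR-206 and 40, 53 and 52 in the controls.

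Nkg7 encodes a membrane protein of cytotoxic granules that is needed for full granule release (ENSMUSG00000004612, chr7:43437073-43438249, plus strand, GRCm38). It had 0, 1 and 0 counts in miR-206 replicates 1, 2 and 3, against 71, 131 and 103 counts in control replicates 1, 2 and 3. The controls lay close together and no miR-206 library came near them. In CPM this was 0.0675 ± 0.117 in miR-206 and 7.94 ± 0.637 in control (SD, n = 3 each). The pooled CPM of the miR-206 libraries was 0.00847 times that of the controls, with an exact 95% interval for counting error of 0.000214 to 0.0475, and the 1 count allows at most 0.376 CPM over the 3 miR-206 libraries together. For the libraries at 0, a limit of 3 counts is 0.722 CPM in miR-206 replicate 1 and 0.524 CPM in replicate 3, while the lowest control value was 7.32 CPM.

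The edgeR log2 fold change of Nkg7 was -7.49 (SE 0.74, adjusted p = 0.000271), and 0.0287% of all genes tested had one as low. Since no miR-206 library reached the filter, Nkg7 had to differ to be tested at all, and with no filter the log2 fold change was -7.72 (SE 0.78, edgeR adjusted p = 1.32e-13). It was past the test in every setting tried, with log2 fold changes between -9.64 and -5.15. Relative to the median of all genes it ran from -8.06 to -7.95 over the 5 scalings. Its counts are also low against the receptor background, which would put 3.29 to 4.85 counts on its 914 exonic bases in the miR-206 libraries. In the controls it stood 26.4, 103 and 92.2 times above that background, and no receptor gene was as densely counted in control replicates 2 and 3.

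Gzma encodes granzyme A, a tryptase-like granule protease of NK cells and some CD8 T cells (ENSMUSG00000023132, chr13:113093825-113100981, minus strand). It had 1, 0 and 0 counts in the miR-206 libraries, against 12, 50 and 19 in the controls. All controls lay above all miR-206 libraries, and control replicate 2 lay well above the other controls. The mean was 0.0802 ± 0.139 CPM in miR-206 and 1.99 ± 1.12 CPM in control (SD, n = 3 each). The pooled ratio of CPM, miR-206 over control, was 0.0319 with an exact 95% interval of 0.000798 to 0.183.

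Gzma missed the count filter because control replicates 1 and 3 had 1.34 and 1.35 CPM. It therefore has no adjusted p beside the other genes. Where other settings let it through, its log2 fold change was -5.83 (SE 1.09, edgeR adjusted p = 5.51e-06) with no filter and -5.50 (SE 1.07, adjusted p = 0.00219) with the other filter, at least 10 counts in 3 libraries. Under a filter a gene that passes only through its control libraries had to differ, as with Nkg7, so these values carry no weight in the counts above. Gzma stood 4.05, 35.7 and 15.5 times above the receptor background in the controls and at or under 0.187 times it in the miR-206 libraries.

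Gzmb encodes granzyme B, the caspase-activating granule protease (ENSMUSG00000015437, chr14:56258838-56262260, minus strand). It had 19, 12 and 14 counts in the miR-206 libraries, against 16, 49 and 15 in the controls. In CPM the groups overlapped, with 4.57, 2.43 and 2.45 in miR-206 and 1.78, 3.21 and 1.07 in control. Control replicate 2, which was also the highest for Gzma, had the most counts. The log2 fold change was -0.48 (SE 0.56, edgeR adjusted p = 0.473) with TMM, and its sign turned under upper-quartile factors (0.41), library size alone (0.64) and hepatocyte scaling, which called it higher (2.21, adjusted p = 0.0296). Unlike Nkg7 and Gzma, granzyme B was counted in every miR-206 library, at 1.86 to 2.49 times the receptor background there and 3.78 to 24.5 times it in the controls.

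Prf1 encodes perforin, the pore-forming protein of the granules (ENSMUSG00000037202, chr10:61297833-61304680, plus strand). It had 8, 11 and 9 counts in the miR-206 libraries, against 3, 14 and 7 in the controls. The raw counts overlap, but in CPM all miR-206 libraries (1.57 to 2.23) lay above all controls (0.335 to 0.918). The log2 fold change was 0.62 (SE 0.71, edgeR adjusted p = 0.457), and hepatocyte scaling called it higher (3.53, adjusted p = 0.00637). These counts were within 0.583 to 1.18 times the receptor background in miR-206 and 0.394 to 3.89 times it in the controls, so perforin was not clearly above background in any miR-206 library or in control replicate 1.

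**Figure D2:**
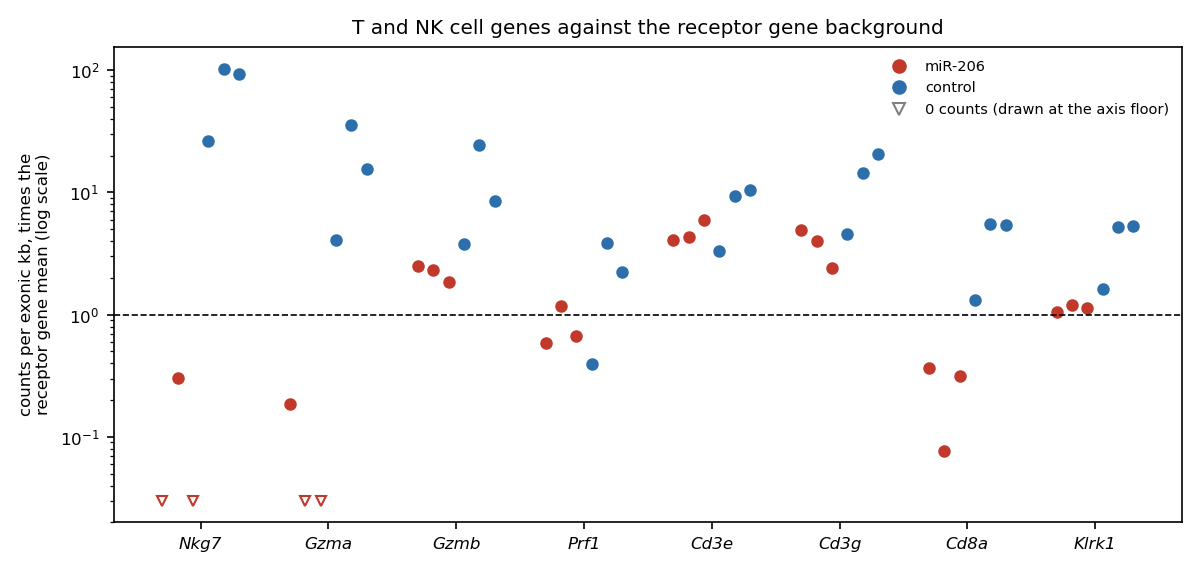
Counts per exonic kilobase of each gene divided by the mean of 1431 olfactory and vomeronasal receptor genes in the same library, on a log axis, with miR-206 libraries (red) left of control libraries (blue). The dashed line is the receptor mean, and triangles at the bottom are libraries with 0 counts. Nkg7 lies at 26.4 to 103 in the controls and Cd3e lies at 4.06 to 5.9 in miR-206 and 3.33 to 10.4 in the controls.

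Cd3e encodes CD3 epsilon, a signalling chain of the T cell receptor complex (ENSMUSG00000032093, chr9:44998740-45009627, minus strand). It had 88, 63 and 126 counts in the miR-206 libraries, against 40, 53 and 52 in the controls. Every miR-206 library had more raw counts than every control although it was shallower. In CPM this was 18.6 ± 5.12 in miR-206 and 3.88 ± 0.517 in control (SD, n = 3 each), and the pooled ratio was 4.93 with an exact 95% interval of 4.02 to 6.07.

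The log2 fold change of Cd3e was 1.23 (SE 0.33, edgeR adjusted p = 0.00995). Of all genes tested, 33.2% had a log2 fold change at least as high, called or not. It stood 0.77 above the median of all genes with TMM and 0.76 to 0.95 above it over the 5 scalings, and it was higher under all of them, from 1.11 with RLE factors to 3.79 with hepatocyte scaling. The call was lost without miR-206 replicate 3, the library with most Cd3e counts (0.80, adjusted p = 0.148), and with no count filter (0.99, adjusted p = 0.0708). Against the receptor background Cd3e ran the other way in control replicates 2 and 3: it lay at 4.06, 4.28 and 5.9 times the background in miR-206 and at 3.33, 9.32 and 10.4 times it in the controls. With that background subtracted the log2 fold change was 2.08 (SE 0.42, edgeR adjusted p = 0.0047). The gene shares 135 exonic bases with Gm48719 on the other strand, which had 8, 13 and 5 counts in miR-206 and 3, 3 and 0 in control. Whether the counting used strand is not given, so reads of this stretch cannot be told apart.

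Cd3g encodes CD3 gamma, the partner chain of CD3 epsilon, and lies beside it on chromosome 9 (ENSMUSG00000002033, chr9:44969572-44980431, minus strand). It had 85, 47 and 41 counts in the miR-206 libraries, against 44, 66 and 82 in the controls. The raw counts overlapped, and miR-206 replicate 1 was highest. In CPM all miR-206 libraries (7.16 to 20.4) lay above all controls (4.33 to 5.83), and the log2 fold change was 0.17 (SE 0.38, edgeR adjusted p = 0.711). It was called higher with upper-quartile factors (1.04, adjusted p = 0.0371), library size alone (1.31, adjusted p = 0.0318) and hepatocyte scaling (2.81, adjusted p = 0.00355). The difference between Cd3e and Cd3g was not tested.

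Cd8a encodes the alpha chain of CD8 (ENSMUSG00000053977, chr6:71373427-71379173, plus strand). It had 7, 1 and 6 counts in the miR-206 libraries, against 14, 28 and 24 in the controls. Raw counts did not overlap, but CPM did, with 1.68, 0.202 and 1.05 in miR-206 and 1.56, 1.84 and 1.71 in control. The log2 fold change was -1.94 (SE 0.69, edgeR adjusted p = 0.0342). The call was lost with upper-quartile factors (-1.07, adjusted p = 0.2) and library size alone (-0.79, adjusted p = 0.411), and without each miR-206 library in turn (adjusted p = 0.0641 without replicate 1, 0.101 without replicate 2 and 0.0737 without replicate 3). The sign turned with hepatocyte scaling (0.61, adjusted p = 0.515), and without any 1 control library the gene missed the filter. Cd8a lay at 0.0763 to 0.363 times the receptor background in miR-206 and at 1.31, 5.52 and 5.4 times it in the controls.

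Klrk1 encodes NKG2D, the activating receptor for stress ligands (ENSMUSG00000030149, chr6:129610323-129623864, minus strand). It had 40, 31 and 43 counts in the miR-206 libraries, against 34, 52 and 47 in the controls. The raw counts overlapped, and in CPM all miR-206 libraries (6.28 to 9.62) lay above all controls (3.34 to 3.79). The log2 fold change was 0.10 (SE 0.37, edgeR adjusted p = 0.819). It was called higher with hepatocyte scaling (2.70, adjusted p = 0.00542), and its sign turned with RLE factors (-0.02) and with the background subtracted (-1.49, adjusted p = 0.137). On its 7183 exonic bases the receptor background would put 38.1, 25.9 and 37.6 counts in the miR-206 libraries, close to the 40, 31 and 43 counted, against 21.2, 10 and 8.78 in the controls. In the miR-206 libraries 34% to 37.7% of receptor genes were as densely counted as Klrk1.

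**Figure D3:**
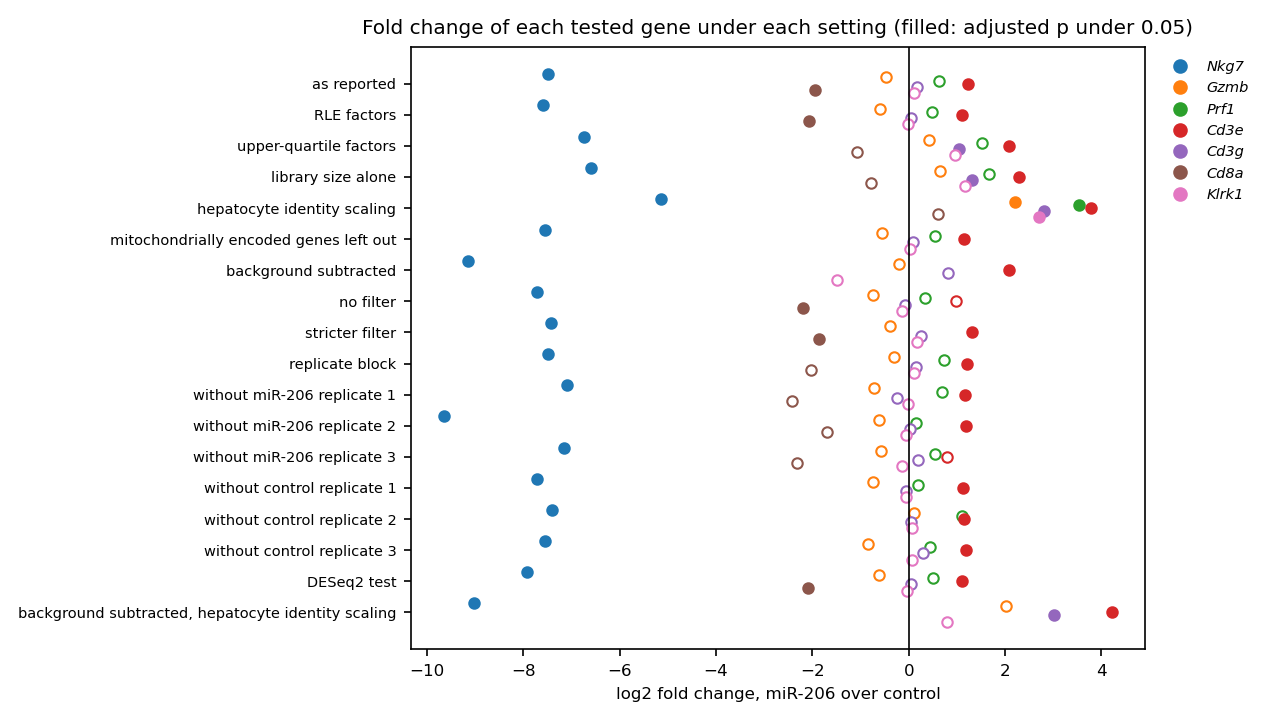
Log2 fold change, miR-206 over control, of each tested gene under each setting, filled where the adjusted p was under 0.05 and open where it was not. Nkg7 stays between -9.64 and -5.15, Cd3e is above 0 throughout, and Gzmb, Cd3g, Cd8a and Klrk1 lie on both sides of 0 depending on the setting.

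The make-up of the 8 genes' counts within a library does not depend on scaling between libraries. Nkg7 took 0%, 0.602% and 0% of them in the miR-206 libraries, against 30.3%, 29.6% and 29.5% in the controls. The control shares lay within counting error of each other (95% Wilson intervals 24.8% to 36.5%, 25.5% to 34.0% and 25% to 34.5%), although control replicate 1 stood apart in other measures. A count of 0 allows a share of up to 1.21% in miR-206 replicate 1 and 1.26% in replicate 3, and the interval in replicate 2 ends at 3.33%.

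Cd3e took 35.5%, 38.0% and 52.7% of the counts in the miR-206 libraries, against 17.1%, 12% and 14.9% in the controls. The intervals of the groups did not overlap, with a lowest bound of 29.8% in miR-206 and a highest of 22.4% in control. For each 100 counts of Cd3e there were 0, 1.59 and 0 counts of Nkg7 in miR-206, against 178, 247 and 198 in control. Shares sum to a whole, so the near absence of Nkg7 in miR-206 raises the others: Klrk1 took 16.1% to 18.7% in miR-206 and 11.7% to 14.5% in control, but 16.2% to 18.8% in miR-206 and 19.8% to 22.5% in control once Nkg7 and Gzma were left out of the sum, where its intervals overlap. With them left out Cd3e took 35.6%, 38.2% and 52.7% in miR-206, against 26.5%, 20.2% and 22.9% in control, and the lowest bound in miR-206, 29.9%, lay under the highest in control, 34.0%. Summed over the 8 genes, the libraries held 248, 166 and 239 counts in miR-206, against 234, 443 and 349 in control, where the receptor background would give 128, 86.9 and 126 in miR-206 and 71, 33.6 and 29.5 in control. The sum was thus 1.89 to 1.94 times the background in miR-206 and 3.29 to 13.2 times it in control. Its part in the differences of single genes was not tested beyond the fit with the background subtracted.

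**Figure D4:**
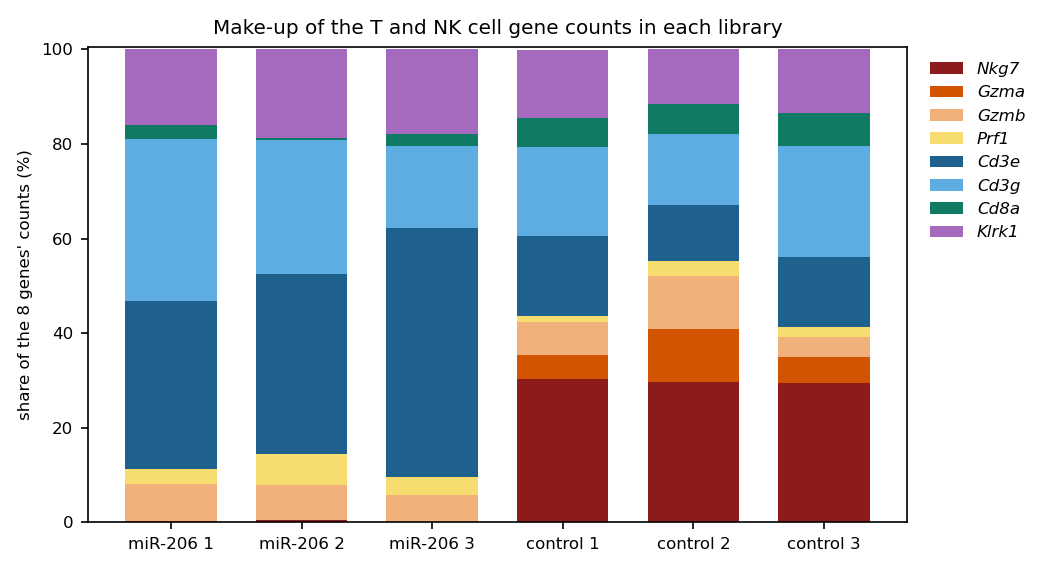
Share of the summed counts of the 8 genes taken by each gene, in percent, 1 bar for each library with the miR-206 libraries on the left. Nkg7 takes 0% to 0.602% in miR-206 and 29.5% to 30.3% in control, and Cd3e takes 35.5% to 52.7% in miR-206 and 12% to 17.1% in control.

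Counts in the lists of genes that work with these 8 are to be read against 25.8% higher and 29.6% lower over all genes tested. The T cell receptor, NK and granule lists hold some of the 8, which are counted in them. Some list genes met the count filter through 1 group alone, so the filter had a hand in their direction too. Among them, Ctla4, Pdcd1, Gzmk, Gzmm, Klra8 and Klrg1 reached it in 3 miR-206 and 0 control libraries. Trbc2 reached it in 0 miR-206 and 3 control libraries. Others reached it in all libraries of 1 group but not of the other, where the same limit holds. Ulbp1 and Klra7 did so in 3 miR-206 libraries and 1 control, and Eomes, Il7r and Sh2d1a in 3 miR-206 libraries and 2 controls. Hcst and Ccl5 did so in 2 miR-206 libraries and 3 controls. Of 17 tested genes of the T cell receptor and its co-receptors, 4 were higher and 2 were lower in miR-206, with a median log2 fold change of 0.56. Besides Cd3e the higher ones were Cd8b1, the beta chain of CD8 (1.21, edgeR adjusted p = 0.0325), and the inhibitory receptors Ctla4 (1.42) and Pdcd1 (2.99). Ctla4 lay at 1.91 to 2.59 times the receptor background in miR-206 and 1.17 to 4.57 times it in control, and Pdcd1 at 0.989 to 1.72 times it in miR-206 and 0 to 1.27 times it in control. Besides Cd8a the lower one was Trbc2, a constant segment of the receptor's beta chain, which was chosen after its values were seen. Trbc2 had 1, 0 and 0 counts in miR-206, against 39, 34 and 54 in control, and a pooled ratio of 0.0203 (exact 95% interval 0.000511 to 0.115). The other constant segment of the beta chain, Trbc1, had 30, 13 and 34 counts in miR-206 and 78, 42 and 11 in control (-0.56, adjusted p = 0.464). The near-identical sequence of Trbc1 and Trbc2 makes the split of reads between them uncertain.

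The chains of CD8 therefore differed in their calls. Cd8b1 had 52, 30 and 74 counts in miR-206 and 18, 28 and 36 in control, whereas Cd8a had 7, 1 and 6 in miR-206 and 14, 28 and 24 in control. In the miR-206 libraries each had its low value in replicate 2. The difference between their fold changes was not tested. Cd3d, CD3 delta, had 5, 11 and 8 counts in miR-206 and 8, 26 and 21 in control (-0.77, adjusted p = 0.336), and was chosen after its values were seen. Cd28, the costimulatory receptor, and Icos, a relative of it, had the most counts of this list and did not pass (0.87, adjusted p = 0.117 for Cd28 and 0.57, adjusted p = 0.145 for Icos).

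Of 17 tested genes of T cell signalling and transcription, 4 were higher and 4 were lower, with a median of 0.87. The adaptor Skap1 had 190, 143 and 161 counts in miR-206 and 63, 75 and 63 in control (1.61, edgeR adjusted p = 0.00134), and Il7r, the interleukin-7 receptor, Ubash3a and Sh2d1a were also higher (1.69, 1.60 and 1.24). Zap70, the kinase that docks on CD3, was lower (-2.86, adjusted p = 0.00518), with 19, 12 and 15 counts in miR-206 and 23, 252 and 163 in control. Control replicate 1 was thus near the miR-206 libraries for Zap70. Lck, the kinase that CD8 carries, had 74, 33 and 74 counts in miR-206 and 67, 119 and 126 in control (-0.50, adjusted p = 0.225).

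Of 21 tested NK cell receptors, adaptors and regulators, 7 were higher and 5 were lower, with a median of 0.35. The adaptor Hcst (DAP10), which carries the signal of NKG2D, had 8, 13 and 6 counts in miR-206 and 36, 36 and 46 in control and was lower (-1.74, edgeR adjusted p = 0.0217), a gene chosen after its values were seen. Tyrobp (DAP12), the other adaptor of mouse NKG2D, had 17, 15 and 39 counts in miR-206 and 484, 1039 and 838 in control (-4.73, adjusted p = 0.000271), and myeloid cells use it as well. Fcer1g, an adaptor shared with myeloid cells, was lower too (-3.74), as was Zbtb16, the factor that directs NKT cells (-2.71). The test did not separate the groups for the receptor Klrk1 and called both adaptors lower, but the difference between their fold changes was not tested. Klrk1 lay at 1.05 to 1.2 times the receptor background in miR-206 and 1.61 to 5.36 times it in control. Hcst was not past the edgeR test with library size alone (-0.77, adjusted p = 0.332) or upper-quartile factors (-0.91, adjusted p = 0.203) and turned sign with hepatocyte scaling (0.85). The genes called higher were Cd244, Eomes, Il12rb2, Il18rap, Klra7, Klra8 and Klrg1, with log2 fold changes of 1.07 (Cd244) to 2.23 (Klrg1). Of these, Klrg1 had 21, 13 and 44 counts in miR-206 and 10, 2 and 7 in control.

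Of 14 tested granule and effector genes, 2 were higher and 6 were lower, with a median of -0.44. Nkg7 is among the 6 lower, and Gzmb and Prf1 are among those that did not pass. The minor granzymes Gzmk and Gzmm were higher: Gzmk had 17, 13 and 22 counts in miR-206 and 6, 4 and 4 in control (2.14, edgeR adjusted p = 0.0168). Gzmm had 29, 31 and 34 counts in miR-206 and 7, 13 and 17 in control (1.69, adjusted p = 0.0169). For Gzmk and Gzmm 0 control libraries reached the count filter, so both were tested only through their miR-206 libraries. Against the receptor background, Gzmk lay at 2.31 to 3.02 times it in miR-206 and 1.47 to 2.36 times it in control, and Gzmm lay at 3.71 to 5.84 times it in miR-206 and 1.61 to 9.45 times it in control. The granule proteoglycan Srgn, the granzyme-processing protease Ctsc, the lysosomal Lamp1 and the fusion factor Stxbp2 were lower (-3.39, -3.52, -3.91 and -2.37), and all 4 are also made outside lymphocytes. Fasl, which encodes Fas ligand and was chosen after its values were seen, had 0 counts in each miR-206 library and 30, 6 and 15 in control, at least 6.58-fold lower with a floor of 3 counts over the miR-206 libraries together. That floor takes the control count as exact, and the exact 95% interval of the ratio, miR-206 over control, ends at 0.194. It missed the filter and was not tested.

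**Figure D5:**
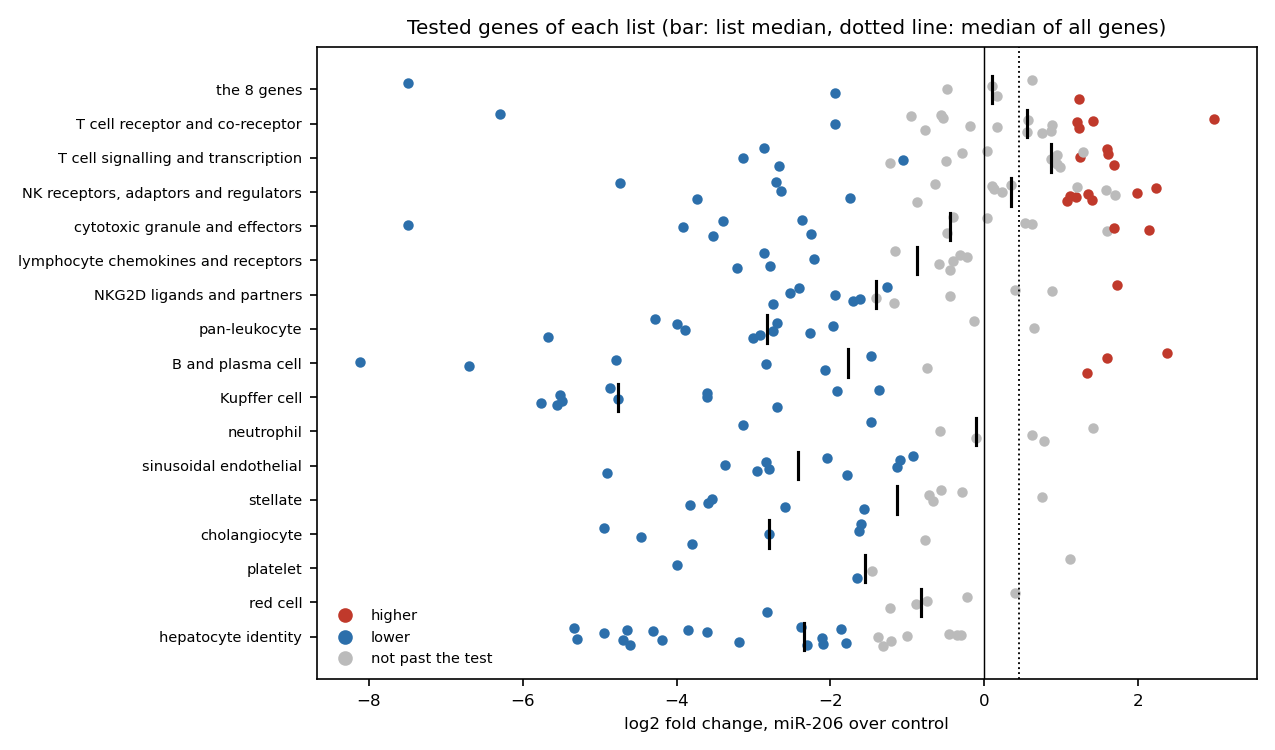
Log2 fold changes, miR-206 over control (TMM), of the tested genes of each list, 1 point for each gene (red higher, blue lower, grey not past the test), with a bar at the median of each list and a dotted line at the median of all genes. Medians run from 0.87 for T cell signalling to -4.76 for Kupffer cell genes, beside 0.45 over all genes tested. The zero line moves with the scaling, under which the median of all genes runs from 0.35 to 2.84.

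Of 10 tested lymphocyte chemokines and receptors, 4 were lower and 0 higher, with a median of -0.88 (0 higher also at an unadjusted p under 0.05 and with DESeq2). Ccl5, a chemokine that NK and CD8 T cells store, was among them and was chosen after its values were seen: it had 13, 10 and 5 counts in miR-206 and 89, 131 and 114 in control (-3.22, edgeR adjusted p = 0.00042). S1pr1, the receptor for exit into blood that endothelium also makes, and Cxcl16 were lower (-2.86 and -2.21), whereas Cxcr6, the receptor of liver-resident NK and NKT cells for CXCL16, had 107, 36 and 78 counts in miR-206 and 98, 127 and 105 in control (-0.32, adjusted p = 0.417). Of 13 tested genes on the side of the target cell, 1 was higher and 7 were lower, with a median of -1.41. The NKG2D ligand Ulbp1 was higher, with 42, 48 and 55 counts in miR-206 and 19, 17 and 19 in control (1.72, adjusted p = 0.00712). MHC class I showed lower H2-D1 (-1.62, adjusted p = 0.0373) and B2m (-2.75, adjusted p = 0.00742), while H2-K1 did not pass (-1.41, adjusted p = 0.0586). In CPM the groups overlapped for all of these. H2-D1 was at 2050 in miR-206 replicate 1 and 1380 to 1470 in control, and B2m at 877 there and 655 in control replicate 1. With library size alone H2-D1 (-0.38, edgeR adjusted p = 0.638) and B2m (-1.46, adjusted p = 0.0801) did not pass.

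These counts of called genes move with the scaling between libraries. The number called over all genes moves with the scaling and with the libraries left out too, as given below. The list counts under other settings therefore do not set the lists apart. Over the 4 other scalings, 3 to 13 of the T cell receptor genes were higher and 1 to 2 lower, 5 to 14 of the NK genes were higher and 1 to 5 lower, and 2 to 8 of the granule genes were higher and 2 to 6 lower. The genes of T cell signalling had 4 to 13 higher and 0 to 4 lower, the chemokine list 0 to 4 higher and 0 to 4 lower, and the target cell list 1 to 6 higher and 0 to 7 lower. The next values are for the genes named as lower in these lists, and for Laptm5 and Alb below, with the 8 left aside. Trbc2 (-4.20), Tyrobp (-2.07), Lamp1 (-0.99) and Laptm5 (-1.27) were still called lower in edgeR with hepatocyte scaling. Under that scaling the sign turned for Zap70 (0.17), Hcst (0.85), Stxbp2 (0.23), Cxcl16 (0.23), H2-D1 (0.92), B2m (0.07) and Alb (0.43), and the other named ones were below 0 but not past the test or had not been tested. Alb is itself among the genes that set this scaling, so its shift there is partly built in. The genes named as higher stayed above 0 under all 5 scalings, but with RLE factors 3 of them missed the threshold: Cd8b1 (1.08, adjusted p = 0.0515), Eomes (1.28, adjusted p = 0.0508) and Klra7 (1.21, adjusted p = 0.0719). Without miR-206 replicate 3 the edgeR test called 0 genes higher in each of the T cell receptor, NK and granule lists, with 1 in each at an unadjusted p under 0.05. Without control replicate 1 it called 7, 8 and 4 genes higher in these lists. With no filter the edgeR test called 1 of 21, 2 of 23 and 0 of 18 of their genes higher. At an unadjusted p under 0.05 these were 2, 5 and 3. The genes called lower with no filter were 3, 5 and 9. No share over all genes is given for the fit with no filter, so these counts cannot be read as particular to the lists. Over the 6 lists together, with the 8 genes left out, 85 genes were tested, of which 17 were higher and 26 were lower, with a median of -0.32. Of the 17 called higher, 0 lay above all controls in all miR-206 libraries when counts were taken relative to the receptor background. Within 3 times that background in all miR-206 libraries were 7 of the 17. Ulbp1 was among these 7 (1.18 to 1.98 in miR-206 and 0.959 to 2.31 in control). Il18rap was as well (1.5 to 1.6 in miR-206 and 1.71 to 3.03 in control). The background was itself denser in the miR-206 group, at 3.6 to 5.31 counts per exonic kilobase, against 1.22 to 2.95 in the control group. Dividing by it therefore lowers miR-206 values relative to control values for any gene. No share over all genes is given on this measure, so the 0 and the 7 cannot be read as particular to the lists.

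Markers of other cells give the surroundings of these values. Of 12 pan-leukocyte genes 10 were lower and 0 higher (median -2.82, with 0 higher also at an unadjusted p under 0.05 and with DESeq2), among them Laptm5 with 50, 24 and 24 counts in miR-206 and 337, 843 and 792 in control. Ptprc, the CD45 gene, was the exception with most counts, at 252, 196 and 330 in miR-206 and 337, 422 and 289 in control (-0.13, edgeR adjusted p = 0.74). Kupffer cell genes were lower in 11 of 11 and sinusoidal endothelial genes in 10 of 10, and B and plasma cell genes were lower in 6 and higher in 3 of 10. These counts move with the scaling too. With hepatocyte scaling Stab2 (1.64, edgeR adjusted p = 0.0135), Pecam1 (1.40, 0.0346), Kdr (1.34, 0.0424) and Timd4 (1.51, 0.0419) turned sign and passed. Clec4f (-2.54, 0.00147), C1qb (-2.76, 0.00154) and Clec4g (-2.56, 0.00705) were still lower. All of these were chosen after their values were seen. Summed Kupffer cell markers were at 63.8 to 87.5 CPM in miR-206 and 306 to 1000 CPM in control, and no gene of these 4 lists was at 0 in all libraries of a group. Hepatocyte identity genes were themselves lower in 17 of 24, with Alb at -2.31 (adjusted p = 0.0224), and summed to 24800 to 110000 CPM in miR-206 and 66400 to 119000 CPM in control. These sums were 427 to 1090 times the receptor background in miR-206 and 2540 to 17000 times it in control, so the labelled cell type was plain in every library. The part of these shifts in the values of the T and NK cell genes was not tested.

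Patterns over the 6 libraries were compared in log2 CPM with TMM factors and a prior count of 2. Among 18394 genes with at least 100 counts, the pattern most like the mean of the tested T and NK cell genes belonged to Rab12, Gbp7, Ubxn8, Pik3c2a and Arid2, with Pearson r of 0.9979 (Arid2) to 0.9996 (Rab12). The 6 points fall in 2 groups and share depth and background, so this is a description only.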

How the data were processed

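The authors deposited a single table of counts for all 6 libraries, whole numbers by Ensembl gene and not normalised. Per the labels' protocols, total RNA from a Qiagen micro kit went into SMARTER mRNA libraries. Per the submitters' processing notes the builds are GRCm 38 and mm 10. Aligner, counter and strandedness: not given in the sources used here.

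The table's identifiers were matched to GENCODE M21 (49056 of 49315) for exonic lengths, positions and 3′ UTRs, and promoters and the miRNA come from RefSeq tables of GRCm38.p6. Genes passing filterByExpr (minimum count 10, here 1.36 CPM in 3 libraries) were scaled by TMM and put through the quasi-likelihood F test of edgeR 4.0.16 (limma 3.58.1, R 4.3.3), robust, group as the only term, at an adjusted p under 0.05. The fit was tested on simulated data. Python 3.11.15, pandas 2.3.3, numpy 2.4.6, scipy 1.17.1 and matplotlib 3.10.9 were used for tables, intervals and figures, and DESeq2 1.42.0 for 1 alternative. The receptor background is the mean count per exonic kilobase of 1431 protein-coding olfactory and vomeronasal receptor genes (5264 exonic kb). The fit with it subtracted removed that density times the exonic length of each gene.

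The 8 genes and the lists (213 of 215 listed genes are in the table used) were chosen with earlier results of these data known. Named genes were the 8, up to 4 per lymphocyte list with most counts plus those called higher, up to 2 per other list, and the 5 most alike. Not all of these are printed, and 1 gene that the rule names is not reported here. Libraries with the same replicate number did not deviate together (correlations -0.006 to 0.023, and -0.019 to 0.012 for other pairs). The labels do not tie libraries to single animals, so p-values measure the spread between libraries, which may be technical. Intervals and limits for counts of 0 (3 counts) are at 95% and take in counting error alone, because without molecular identifiers 1 molecule can give several reads.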

Additional observations from a re-analysis of the deposited data

How the results depend on the processing

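Nkg7 was lower and past the test in each setting tried, with or without the filter that it met through its controls alone. The number of the 8 genes called lower, 2 with TMM, was 1 with upper-quartile factors, library size alone, hepatocyte scaling, mitochondrially encoded genes left out, the background subtracted, and the background subtracted together with hepatocyte scaling, an alternative chosen after seeing the data. It was 1 to 2 when each library was left out in turn, and the 2 without a miR-206 library were Nkg7 and Gzma, not Cd8a. With no filter and with the stricter filter it was 3 (Nkg7, Gzma and Cd8a). The number called higher, 1 with TMM, was 2 with upper-quartile factors, 2 with library size alone, 5 with hepatocyte scaling, 2 with the background subtracted together with hepatocyte scaling, 0 with no filter (edgeR, 1 at an unadjusted p under 0.05, and 1 with DESeq2 on filtered genes) and 0 to 1 when libraries were left out. With the replicate number as a block, which the check of pairing does not call for, 1 of the 8 was lower and 1 higher. Under the block Cd8a no longer passed (adjusted p = 0.0781), and no other call changed among the 8.

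Over all genes, 7213 were lower with TMM, against 3774 with library size alone, 501 with hepatocyte scaling, 1189 with the background also subtracted, and 6202 to 8858 with libraries left out. Higher were 6289, against 10026 with the background subtracted and hepatocyte scaling, 10629 with upper-quartile factors, 11642 with library size alone and 16101 with hepatocyte scaling. The count was 1916 without miR-206 replicate 3 and 10674 without control replicate 1, the ends of that range.

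The sign turned for Gzmb (0.41 with upper-quartile factors, 0.64 with library size alone, 2.21 with hepatocyte scaling, 2.02 with the background also subtracted, and -0.84 to 0.10 with libraries left out), for Cd3g (-0.08 with no filter, -0.24 to 0.30 with libraries left out), for Cd8a (0.61 with hepatocyte scaling) and for Klrk1 (-0.02 with RLE factors, -0.03 with DESeq2, -0.15 with no filter, -1.49 with the background subtracted, -0.14 to 0.07 with libraries left out). The scalings move all genes together, as their medians show, and for the other changes the cause was not tested. Low counts limit all of these genes, and background subtraction and leaving out mitochondrial genes took Cd8a below the filter.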

Other observations

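Within the controls, several T cell genes differed between libraries by more than the depth did. Trbc1 had 78, 42 and 11 counts in control replicates 1, 2 and 3, Fasl had 30, 6 and 15, and Zap70 had 23, 252 and 163. Trbc1 and Fasl were thus highest in the shallowest control library, where Zap70 was lowest. In the miR-206 libraries the spread was narrower for Zap70, at 19, 12 and 15 counts. Fasl, Trbc1 and Zap70 are set side by side here after their values were seen.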
